A study of Mus musculus with 6 samples.

Results

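Genes of DNA replication and nucleotide synthesis were followed in RAW264.7, a mouse macrophage line made from a tumour induced by Abelson murine leukaemia virus, which divides continuously in culture. The 44 genes were chosen by name, from origin licensing to deoxynucleotide supply, out of 55536 annotated genes, and all 44 passed the filter on low counts. There were 3 libraries labelled Ti, from cells given Ti particles (titanium debris of the kind implants shed), and 3 labelled Ctrl, from cells given PBS, a salt buffer. All 6 came from total RNA of this single line, labelled with the background strain C57BL/6 although RAW264.7 is usually described as of BALB/c origin, and the labels state neither how much of the particles was added nor for how long. Nothing says that replicates were separate cultures, so p-values measure only the spread between these libraries, which may be technical.

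Before a cell copies its DNA, the origin recognition complex with Cdc6 and Cdt1 loads the ring-shaped Mcm2-7 helicase onto origins. Cdc45 and the GINS complex then switch the helicase on, the polymerases copy each strand from primers, and the clamp Pcna keeps them on the template while ribonucleotide reductase supplies deoxynucleotides. Many of these genes are transcribed at the entry into S phase by E2F factors, which the RB family holds back in resting cells. In bulk RNA, fewer cells in S phase and less RNA per cell cannot be told apart.

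E2F-type letters were common in the promoters of these genes. RefSeq promoter windows (GRCm38.p6, 250 bases before to 50 bases after each gene start) matched 36 of the 44 genes with 42 windows. The letters TTTCCCGC, TTTGGCGC, TTTCGCGC or TTTGGCGG, read on both strands with overlaps allowed, occurred in 17 of the 42 windows (40.5%), against 523 of 11808 windows of genes tested here (4.43%) and 777 of all 32851 windows (2.37%). The median GC content was 60.7% in the replication windows and 60.7% in those of genes tested. Of the 17 genes with a match, 11 carried one wholly upstream of the start and 6 carried more than 1. CCAAT occurred in 57.1% of the replication windows and 38.3% of the tested ones, and TTTGAA, a core of promoters active in mitosis, in 11.9% and 12.5%. A match is a description of letters and not a bound site. The 180 bases upstream of the start are printed for 4 genes that differ in role, the loader Cdc6, the helicase subunits Mcm5 and Mcm6 and the catalytic subunit of polymerase alpha, Pola1, with the E2F-type letters in capitals. In Mcm5 and in Mcm6 matches on opposite strands overlap, which makes a run of capitals longer than a single motif. The RefSeq start of Cdc6 lies 350 bases inside the GENCODE gene whose transcripts were counted, so its stretch is upstream of the RefSeq start only; for Mcm5 and Mcm6 the RefSeq start lies before the GENCODE start, and for Pola1 they coincide.
Cdc6 (chr11:98907971-98908150, plus strand): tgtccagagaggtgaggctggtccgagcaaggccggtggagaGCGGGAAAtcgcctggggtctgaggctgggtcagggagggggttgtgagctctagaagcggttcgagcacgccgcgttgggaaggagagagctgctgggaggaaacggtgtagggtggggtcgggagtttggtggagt
Mcm5 (chr8:75109329-75109508, plus strand): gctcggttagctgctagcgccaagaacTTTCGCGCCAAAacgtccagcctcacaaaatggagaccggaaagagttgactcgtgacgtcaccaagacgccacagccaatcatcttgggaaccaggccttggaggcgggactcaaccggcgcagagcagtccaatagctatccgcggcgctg
Mcm6 (chr1:128359706-128359885, minus strand): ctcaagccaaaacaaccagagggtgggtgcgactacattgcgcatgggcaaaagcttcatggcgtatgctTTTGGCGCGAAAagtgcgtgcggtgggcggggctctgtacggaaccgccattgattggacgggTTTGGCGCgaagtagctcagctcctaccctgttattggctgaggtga
Pola1 (chrX:93632156-93632335, minus strand): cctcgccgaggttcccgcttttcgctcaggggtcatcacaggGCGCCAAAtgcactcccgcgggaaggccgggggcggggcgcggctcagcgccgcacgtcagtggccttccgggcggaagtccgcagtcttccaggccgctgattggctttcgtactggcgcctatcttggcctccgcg

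**Figure D1:**
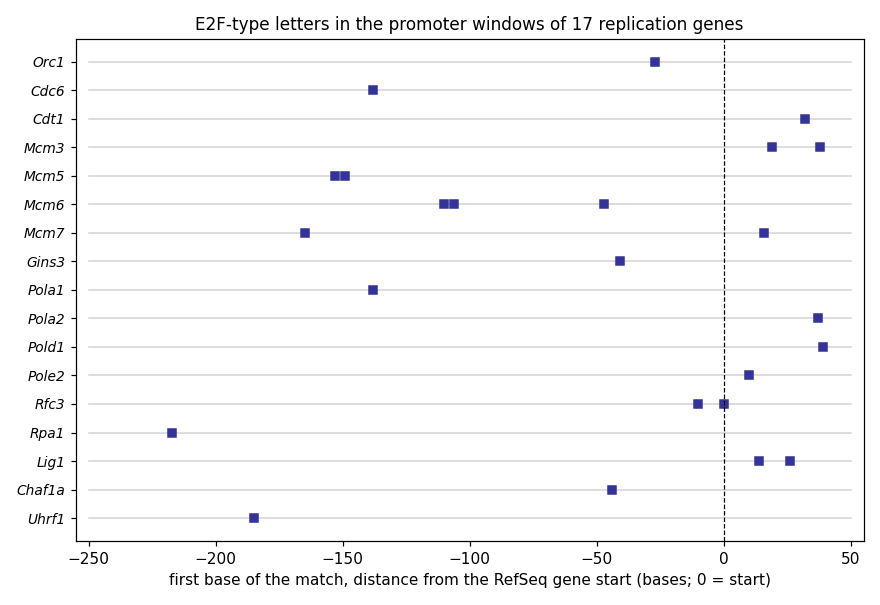
First base of each E2F-type match (squares) along the RefSeq window of the 17 genes that hold one, in bases from the gene start. Of these genes 11 have a match wholly before the start, marked by the dashed line, and Mcm6 has 3 matches.

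The expression question was whether particles changed this programme, and no replication gene passed. Of the 44 genes 0 had an adjusted p under 0.05 (edgeR, Benjamini-Hochberg over 15376 genes), where 0.026% of all genes tested did. At an unadjusted p under 0.05 there were 2 (4.55%, against 6.76% of all genes tested), both lower with Ti. DESeq2 and voom also called 0 of the 44, against 1.9% and 0.065% of all genes. In the fit blocked on replicate number 0 were called, where 0% of all genes were, and 3 had an unadjusted p under 0.05, where 9.37% of all genes did. Per length (limma on TPM) 0 of the 44 had an unadjusted p under 0.05, where 5.37% of all genes did. Fold changes were above 0 in 21 genes and below 0 in 23, with a median log2 fold change (Ti over Ctrl) of -0.0066, against 0.0053 over all genes tested. The median size of the log2 fold change, sign ignored, was 0.11 in these genes and 0.20 in all genes tested, and the median standard error was 0.15 and 0.27.

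For most of the genes the interval of the difference was narrow. In 36 of 44 the 95% interval lay within a 2-fold change in either direction, and in 29 it lay within 1.5-fold. The 8 wider ones were Orc6, Cdc6, Mcm7, Cdc45, Rfc1, Rfc2, Rfc4 and Lig1. These intervals are for the sum over all annotated transcripts of a gene and do not bound its coding transcripts. Those held on average under 50% of the estimate in 8 genes, namely Orc6, Mcm7, Prim1, Pold1, Pole, Rfc5, Tyms and Tk1. Pole had 0.96 with coding transcripts alone (unadjusted p = 0.154, edgeR), outside its interval of -0.38 to 0.53, with a high coding share in Ti replicate 3 alone. The 3 libraries of each group were separated for 5 genes (11.4%, against 13.3% of genes tested). Prim2 had all Ti libraries above all Ctrl libraries, where 6.63% of genes tested did, and Cdc6, Pola2, Rfc2 and Rpa1 had all Ti libraries below, where 6.71% did. Per length (TPM) the groups of these 5 genes overlapped. Those of Gins3, Gins4 and Rpa2 were separated there, all lower with Ti. Gins4 stood at 42.7, 37.8 and 39.8 TPM in the Ti libraries, against 43.06, 43.07 and 44.6 TPM in the Ctrl libraries. Rpa2 stood at 62.3, 57.4 and 61.4 TPM in the Ti libraries, against 62.4, 64.6 and 69.2 TPM in the Ctrl libraries. The share of all genes tested that were separated per length was not counted. Together the 44 genes made up 0.590%, 0.572% and 0.544% of normalised counts in Ti replicates 1, 2 and 3, against 0.600%, 0.598% and 0.547% in Ctrl replicates 1, 2 and 3. The library numbered 3 was the lowest in both groups, and Ti was below the same-numbered Ctrl library in all 3 pairs. Gene by gene, Ti was below its same-numbered Ctrl in all 3 pairs for 13 of the 44 genes (29.5%, against 17.3% of genes tested), namely Cdc6, Mcm5, Mcm6, Gins3, Gins4, Pola2, Pold2, Rfc2, Rpa1, Rpa2, Lig1, Chaf1b and Uhrf1. It was above in all 3 pairs for 5 (11.4%, against 18.3%), namely Prim2, Fen1, Rrm2, Ccne1 and Ccne2. These counts were made after the values were seen and carry no test. In the blocked fit 0 of these genes passed, but 0% of all genes tested did, so that result says nothing particular about them.

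**Figure D2:**
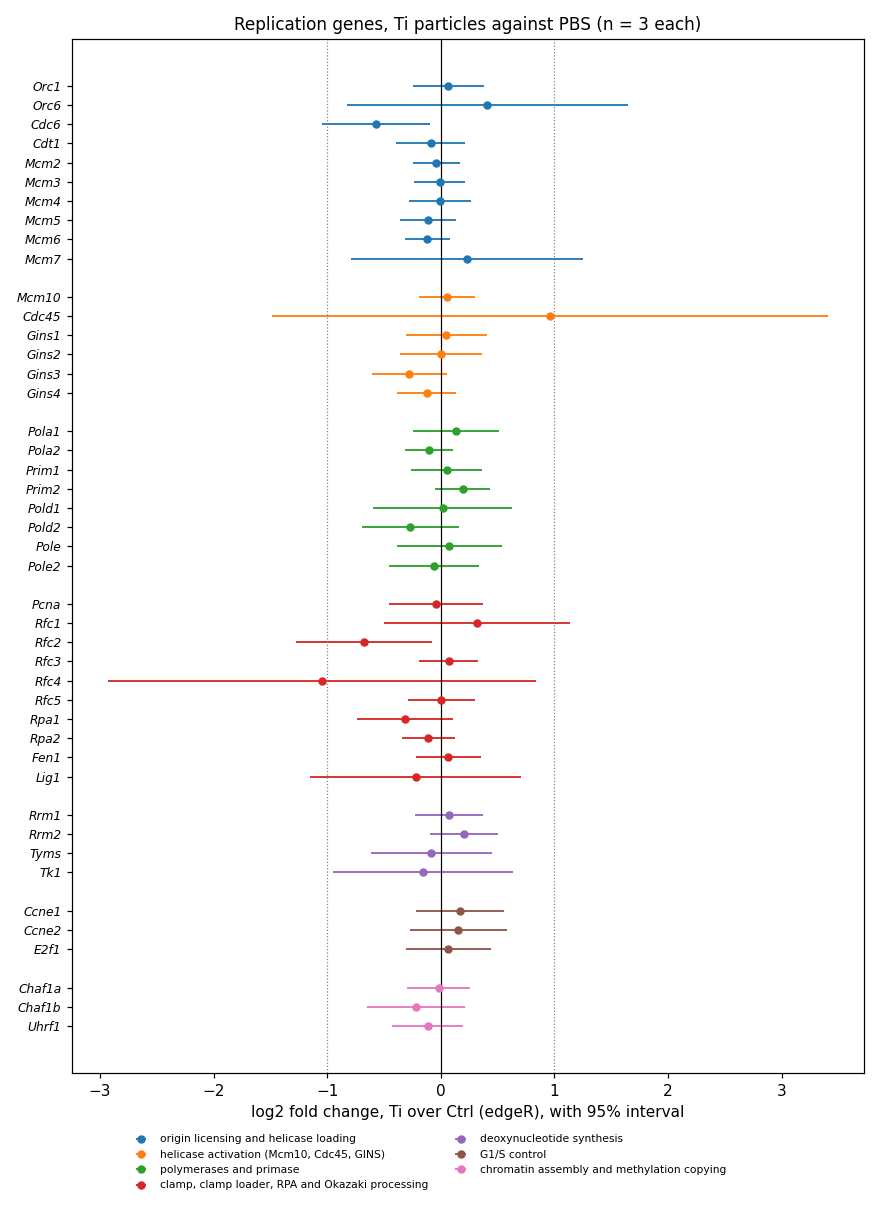
Log2 fold change of each replication gene, Ti over Ctrl, with its 95% interval, grouped by role; dotted lines mark a 2-fold change. In 36 of the 44 genes the interval stays between the dotted lines, and Cdc45 and Rfc4 have the widest intervals.

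Levels between genes are given as TPM (rescaled counts per exon length, scaled to a common sum), as means over all 6 libraries. Assembled transcripts without a gene name, with 36.9% to 51.2% of the deposited totals, are left out. The order is thus one of annotated transcripts only. The replication genes had a median of 42.6 TPM against 7.69 TPM over all genes tested, and 42 of the 44 exceeded 7.69 TPM. The order was led by Pcna at 305 TPM, Mcm5 at 194, Uhrf1 at 189, Mcm6 at 181, Mcm3 at 160.5, Rrm2 at 158, Mcm2 at 137 and Rrm1 at 133 TPM. The lowest were Rfc2 at 4.36, Orc6 at 5.68, Orc1 at 12.3, Gins2 at 13.7 and Fen1 at 15.2 TPM. These sums include forms that are not coding, so the order is not one of coding RNA. Coding transcripts held on average 7.5% of the Tk1 estimate, 8.0% for Mcm7 and 3.3% for Rfc5, against 97.0% for Orc1 and 100% for Fen1. The coding form Tk1-201 was at 1.70, 1.64 and 2.71 TPM in the Ti libraries and at 1.60, 0.59 and 4.32 TPM in the Ctrl libraries. Subunits of replication protein A, which coats single-stranded DNA, had means close together, with 63.5 TPM for Rpa1, 62.9 TPM for Rpa2 and 64.8 TPM for Rpa3, which is not among the 44. In Ti replicate 2, however, Rpa1 was at 37.9 TPM and Rpa2 at 57.4 TPM. The polymerase alpha-primase subunits that start each strand had 58.1 TPM for Pola2, 45.4 for Pola1, 44.2 for Prim1 and 39.4 TPM for Prim2. Their coding transcripts held on average 77.4%, 97.3%, 38.2% and 78.5% of the estimate, in that order.

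**Figure D3:**
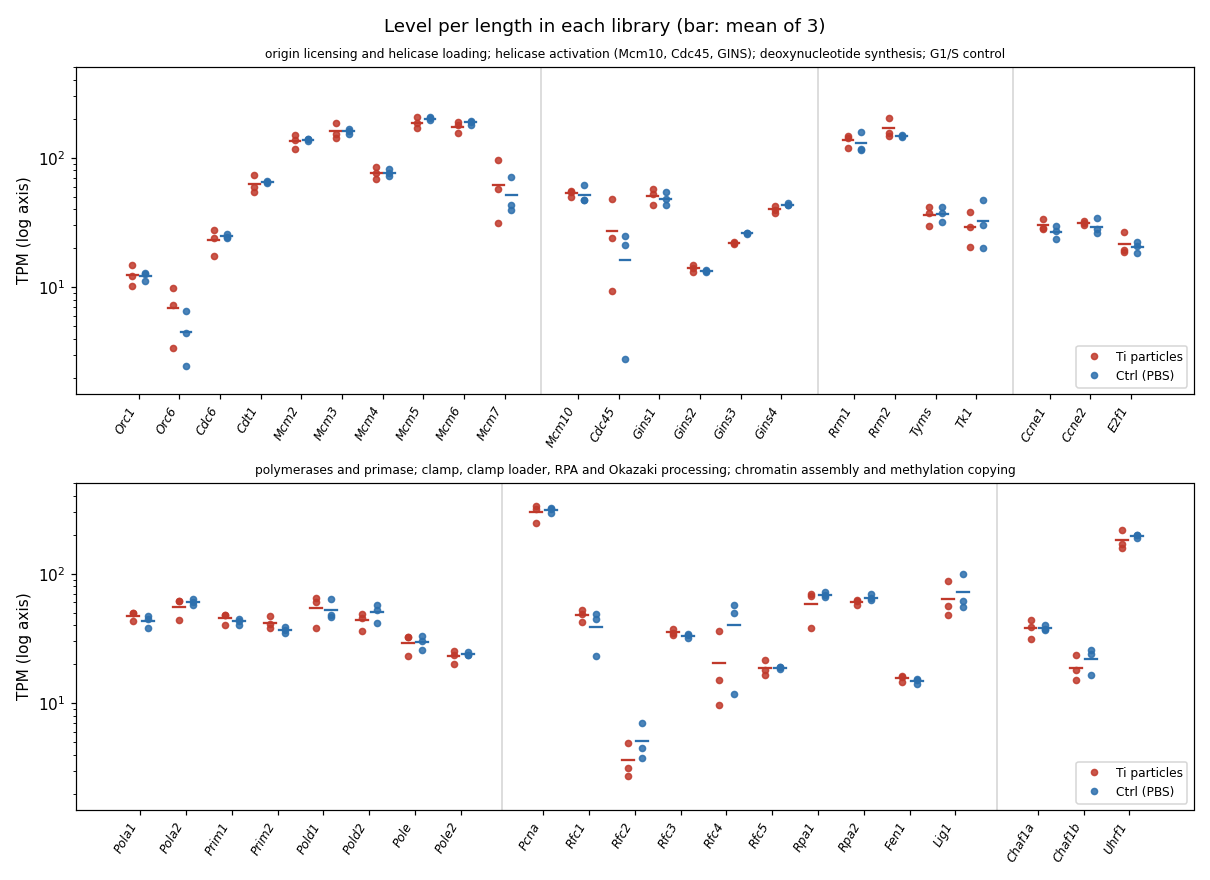
TPM of each replication gene in each library (points; log axis) with the mean of 3 (bars), Ti left and Ctrl right of each gene. Pcna is highest, Rfc2 and Orc6 are lowest, and Cdc45 and Rfc4 scatter widely within both groups.

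Among the 10 licensing genes, Mcm2 to Mcm6 had narrow intervals. Mcm5, a subunit of the helicase ring, stood at 427, 417 and 383 CPM in the Ti libraries, against 468, 461 and 397 CPM in the Ctrl libraries (CPM, normalised counts on TMM-scaled library sizes). The groups overlapped (-0.11 ± 0.10, unadjusted p = 0.307, adjusted p = 0.927, edgeR; ± gives the SE of the log2 fold change). Mcm2, Mcm3, Mcm4 and Mcm6 had log2 fold changes of -0.039, -0.0100, -0.0032 and -0.12, those of Mcm3 and Mcm4 changing sign under several alternatives, coding transcripts alone among them, and none of these 4 intervals reached beyond -0.32 or 0.27. Mcm2 to Mcm6 summed to 1854, 1789 and 1691 CPM in the Ti libraries, against 1957, 1908 and 1719 CPM in the Ctrl libraries, lower with Ti in each same-numbered pair. Orc1, an ATPase subunit of the origin recognition complex, had 0.068 ± 0.13, and Cdt1, which is destroyed once S phase begins, -0.087 ± 0.13.

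Cdc6, the ATPase that works with Cdt1 in loading the helicase, had the smallest unadjusted p of the 44. It stood at 52.2, 45.9 and 53.2 CPM in the Ti libraries, against 92.1, 56.2 and 76.6 CPM in the Ctrl libraries, with the groups separated (-0.57 ± 0.19, unadjusted p = 0.0254, adjusted p = 0.637, edgeR). Per length it stood at 24.2, 17.5 and 27.9 TPM in the Ti libraries, against 25.8, 24.3 and 24.1 TPM in the Ctrl libraries, and the groups overlapped (log2 difference -0.12, unadjusted p = 0.565, limma on log2(TPM + 0.5), a scale added once the data had been seen). The estimate lay on transcripts of unequal length in different libraries. The long form Cdc6-201, of 4614 bases, was at 1106, 647 and 738 rescaled counts in the Ti libraries and at 5787, 859 and 3139 in the Ctrl libraries. The shorter Cdc6-202, of 2559 bases, was at 1235, 878 and 1665 rescaled counts in the Ti libraries and at 27.6, 1329 and 9.1 in the Ctrl libraries. In Ctrl replicates 1 and 3 nearly the whole estimate was the long form, while Ctrl replicate 2 and the Ti libraries held both.

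Mcm7, the remaining ring subunit, was hardly measured as a full-length transcript. Its 15-exon coding transcript Mcm7-201 was at 11, 2.6 and 2.3 rescaled counts in the Ti libraries and at 1.9, 4.2 and 2.3 in the Ctrl libraries, and on average 8.0% of the gene's estimate was on coding transcripts. Most of it was a retained-intron transcript, Mcm7-205, at 2527, 553 and 1605 rescaled counts in the Ti libraries and at 2425, 796 and 863 in the Ctrl libraries. The gene's log2 fold change was 0.23 ± 0.42.

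Orc6, the smallest subunit of the origin complex, had the lowest level per length of the licensing genes. It stood at 5.28, 2.71 and 7.05 CPM in the Ti libraries, against 3.63, 5.79 and 1.92 CPM in the Ctrl libraries, and the groups overlapped (0.41 ± 0.51, unadjusted p = 0.450, adjusted p = 0.957, edgeR). Its form Orc6-204, which the annotation marks for nonsense-mediated decay, was at 181, 53.7 and 0 rescaled counts in the Ti libraries and at 155, 157 and 0 in the Ctrl libraries, listed at 0 in both libraries numbered 3. The coding form Orc6-202 was at 35.7, 11.8 and 74.1 rescaled counts in the Ti libraries and at 41.1, 61.4 and 55.1 in the Ctrl libraries. Assembled transcripts without a gene name held 36.9% to 51.2% of the deposited totals, and whether they hold RNA of Mcm7, Orc6 or other genes was not tested.

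The helicase activators held 5 genes with intervals within 2-fold and a scattered Cdc45. Mcm10, a scaffold of helicase firing and the highest of them per length, stood at 106, 125 and 125 CPM in the Ti libraries, against 112, 112 and 118 CPM in the Ctrl libraries (0.055 ± 0.10, unadjusted p = 0.608, adjusted p = 0.969, edgeR). Gins2, the lowest, stood at 37.2, 41.2 and 32.7 CPM in the Ti libraries, against 38.6, 40.1 and 32.2 CPM in the Ctrl libraries (0.0024 ± 0.15, unadjusted p = 0.988, adjusted p = 0.9996, edgeR). In both genes the groups overlapped, and Gins1 and Gins4 had 0.050 ± 0.15 and -0.12 ± 0.11. Gins3 stood at 37.6, 45.6 and 36.4 CPM in the Ti libraries, against 50.5, 50.4 and 43.9 CPM in the Ctrl libraries, overlapping at Ti replicate 2 (-0.28 ± 0.14, unadjusted p = 0.0897, adjusted p = 0.803, edgeR). Per length its groups were separated, at 21.9, 22.4 and 21.4 TPM in the Ti libraries, against 26.4, 25.9 and 26.3 TPM in the Ctrl libraries, although it did not pass there either (unadjusted p = 0.0730, limma).

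Cdc45, which joins Mcm2-7 and GINS in the active helicase, stood at 10.3, 82.5 and 31.3 CPM in the Ti libraries, against 29.5, 3.12 and 31.2 CPM in the Ctrl libraries. Ti replicate 2 was the highest of the 6 and Ctrl replicate 2 the lowest. Its log2 fold change of 0.96 ± 1.005 had a 95% interval of -1.49 to 3.40, and was -0.034 without Ti replicate 2 and 0.45 without Ctrl replicate 2. Transcript Cdc45-201 was at 0, 1857 and 0 rescaled counts in the Ti libraries and at 0, 1.5 and 0 in the Ctrl libraries, so that Ti replicate 2 held nearly all of it.

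The 8 polymerase and primase genes all had intervals within 2-fold. Prim2, the large primase subunit, stood at 70.7, 69.7 and 62.5 CPM in the Ti libraries, against 61.6, 57.9 and 58.0 CPM in the Ctrl libraries, separated by a narrow gap (0.19 ± 0.100, unadjusted p = 0.101, adjusted p = 0.816, edgeR). Pola2, the regulatory subunit of polymerase alpha, stood at 88.9, 84.3 and 92.3 CPM in the Ti libraries, against 95.5, 94.2 and 95.6 CPM in the Ctrl libraries, also separated (-0.10 ± 0.086, unadjusted p = 0.277, adjusted p = 0.915, edgeR). Neither passed. Pole2, an accessory subunit of the leading-strand polymerase epsilon and the lowest of the 8 per length, stood at 28.2, 35.1 and 24.5 CPM in the Ti libraries, against 31.0, 31.5 and 29.2 CPM in the Ctrl libraries, and the groups overlapped (-0.063 ± 0.16, unadjusted p = 0.712, adjusted p = 0.984, edgeR). Its transcript Pole2-202 was at 0, 933 and 0 rescaled counts in the Ti libraries and at 0, 0 and 0 in the Ctrl libraries. Pole, the catalytic subunit of that polymerase, had 0.076 ± 0.19, and 0.96 with coding transcripts alone, which held 18.9% of its estimate on average. Prim1, the catalytic primase subunit, had 0.051 ± 0.13, and 0.32 with coding transcripts alone, which held 38.2%. Pola1 had 0.13 ± 0.15 and Pold2, an accessory subunit of the lagging-strand polymerase delta, -0.27 ± 0.18.

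Pold1, the catalytic subunit of polymerase delta, had overlapping sums over an unsteady choice of transcript. It stood at 144, 101.5 and 123 CPM in the Ti libraries, against 164, 109.9 and 90.4 CPM in the Ctrl libraries (0.015 ± 0.25, unadjusted p = 0.953, adjusted p = 0.999, edgeR). Pold1-208, another form marked for nonsense-mediated decay, was at 6153, 0 and 0 rescaled counts in the Ti libraries and at 9950, 0 and 0 in the Ctrl libraries. The coding form Pold1-201 was at 50.4, 1756 and 2348 rescaled counts in the Ti libraries and at 0.9, 2299 and 1523 in the Ctrl libraries. The library numbered 1 in each group thus held a form listed at 0 in the other 4.

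Lig1, the ligase that joins Okazaki fragments, differed by library number in the same manner. It stood at 81.7, 86.5 and 168 CPM in the Ti libraries, against 106, 97.1 and 189 CPM in the Ctrl libraries, highest in replicate 3 of both groups, and Lig1-210 was at 0, 0 and 1546 rescaled counts in the Ti libraries and at 0, 0 and 1532 in the Ctrl libraries. Without the block it had -0.22 ± 0.38, unadjusted p = 0.585, adjusted p = 0.969, edgeR. With the replicate block its log2 fold change was -0.24 (unadjusted p = 0.0452, adjusted p = 0.525, edgeR with the block), and without Ctrl replicate 3 it was 0.15.

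**Figure D4:**
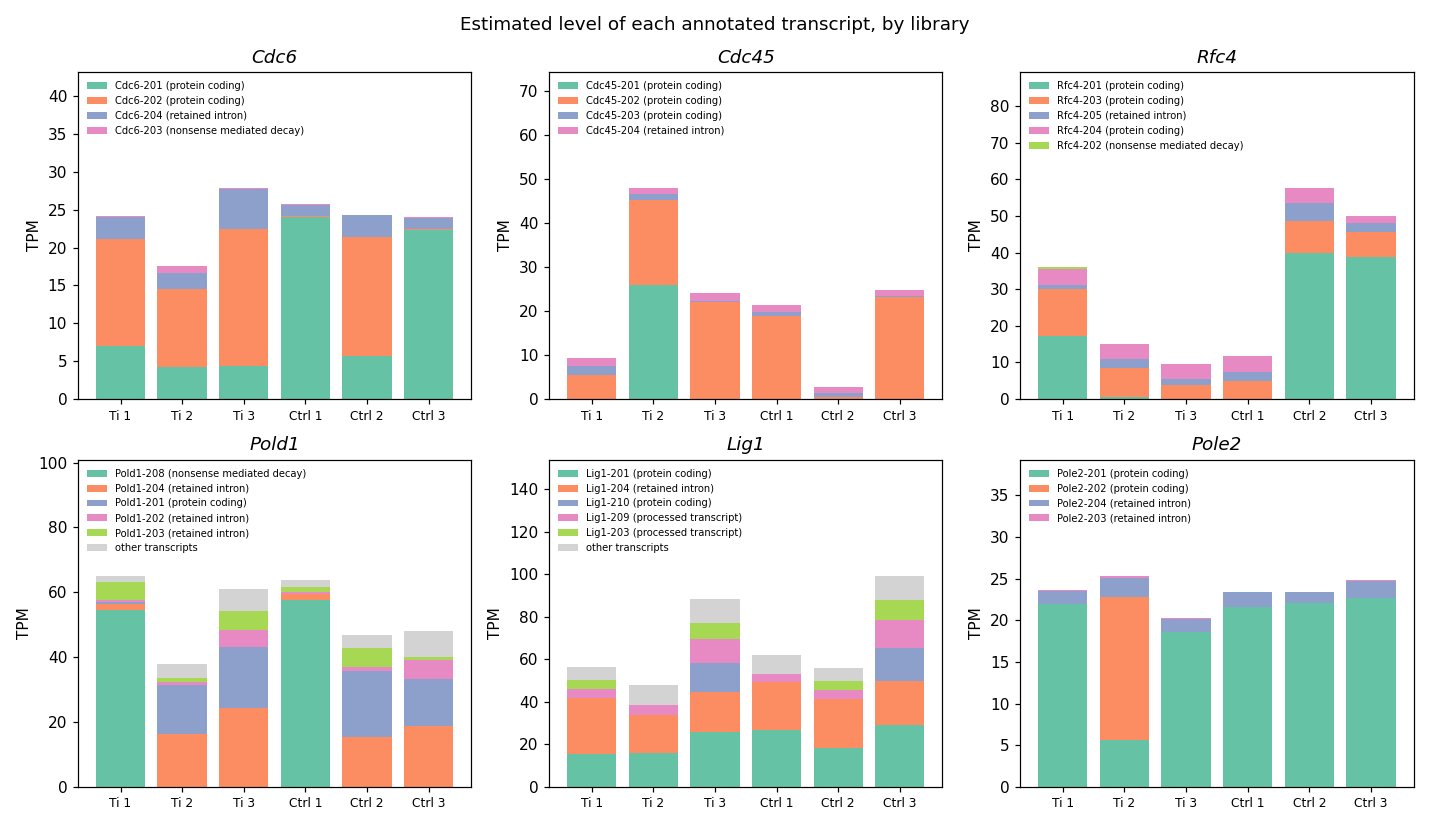
TPM of the annotated transcripts of 6 replication genes, stacked, in each library, Ti left and Ctrl right. Cdc6-201 makes up most of Cdc6 in Ctrl replicates 1 and 3, Pold1-208 fills the libraries numbered 1 of both groups, and Cdc45 and Rfc4 differ in total within both groups.

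Among clamp, loader and strand-finishing genes, Pcna had the highest level per length. It stood at 352, 411 and 272 CPM in the Ti libraries, against 367, 383 and 315 CPM in the Ctrl libraries, and the groups overlapped (-0.042 ± 0.17, unadjusted p = 0.815, adjusted p = 0.992, edgeR). The replication factor C genes, whose products open and place the clamp, ranged from narrow to wide. Rfc3 and Rfc5 had 0.069 ± 0.11 and 0.0055 ± 0.12, although on average 3.3% of the Rfc5 estimate was on coding transcripts. Rfc1 stood at 170.0, 169.9 and 163 CPM in the Ti libraries, against 155, 179.6 and 69.1 CPM in the Ctrl libraries, low in Ctrl replicate 3 alone, and its log2 fold change of 0.32 ± 0.34 was 0.0072 without that library.

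Rfc4 scattered in both groups, at 30.9, 13.8 and 7.03 CPM in the Ti libraries, against 9.14, 54.2 and 43.3 CPM in the Ctrl libraries (-1.04 ± 0.77, 95% interval -2.93 to 0.84). Its coding form Rfc4-201 was at 720, 17.9 and 0.1 rescaled counts in the Ti libraries and at 0.1, 1613 and 1456 in the Ctrl libraries, near 0 in Ti replicate 3 and Ctrl replicate 1. The log2 fold change of Rfc4 was -1.77 without Ti replicate 1, -0.67 without Ti replicate 3 and -0.60 without Ctrl replicate 2, and -0.32 with voom. Rfc2 was the other gene with an unadjusted p under 0.05. It stood at 3.97, 6.88 and 6.14 CPM in the Ti libraries, against 9.72, 9.10 and 8.29 CPM in the Ctrl libraries, with the groups separated (-0.68 ± 0.25, unadjusted p = 0.0328, adjusted p = 0.685, edgeR). Per length its groups overlapped, at 2.74, 3.16 and 4.95 TPM in the Ti libraries, against 4.46, 3.77 and 7.08 TPM in the Ctrl libraries, the lowest level of the 44.

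Rpa1 stood at 246, 159.9 and 233 CPM in the Ti libraries, against 276, 265 and 252 CPM in the Ctrl libraries, separated, with Ti replicate 2 the lowest (-0.31 ± 0.17, unadjusted p = 0.121, adjusted p = 0.823, edgeR). Without that library its log2 fold change was -0.14, and Rpa2 had -0.11 ± 0.096. Fen1, the nuclease that trims Okazaki flaps, had 0.065 ± 0.12.

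In deoxynucleotide synthesis, Rrm2, the ribonucleotide reductase subunit whose amount follows S phase, stood at 317, 283 and 245 CPM in the Ti libraries, against 257, 253 and 224 CPM in the Ctrl libraries. The groups overlapped at Ti replicate 3 (0.20 ± 0.12, unadjusted p = 0.152, adjusted p = 0.848, edgeR), and with the replicate block its log2 fold change was 0.20 (unadjusted p = 0.0489, adjusted p = 0.530, edgeR with the block). Rrm1, its large partner, had 0.074 ± 0.12. Tk1, which salvages thymidine and was the lowest of these genes per length, stood at 25.7, 22.0 and 35.4 CPM in the Ti libraries, against 29.1, 20.02 and 43.5 CPM in the Ctrl libraries, overlapping (-0.16 ± 0.33, unadjusted p = 0.647, adjusted p = 0.976, edgeR). Tyms, which makes thymidylate, had -0.084 ± 0.22, with 46.4% of its estimate on coding transcripts and 7.5% for Tk1.

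The G1/S regulators were 3 genes with fold changes above 0, E2f1 turning below 0 without Ti replicate 1, and none passed. Ccne2, an E-type cyclin, stood at 63.0, 81.7 and 62.0 CPM in the Ti libraries, against 57.9, 73.5 and 54.3 CPM in the Ctrl libraries (0.16 ± 0.17, unadjusted p = 0.406, adjusted p = 0.949, edgeR). Ccne1, the other E-type cyclin, stood at 48.8, 48.8 and 42.3 CPM in the Ti libraries, against 47.1, 43.4 and 33.7 CPM in the Ctrl libraries (0.17 ± 0.16, unadjusted p = 0.326, adjusted p = 0.933, edgeR). The transcription factor E2f1 stood at 53.7, 46.0 and 40.4 CPM in the Ti libraries, against 41.5, 50.5 and 41.7 CPM in the Ctrl libraries (0.067 ± 0.15, unadjusted p = 0.680, adjusted p = 0.981, edgeR). The chromatin genes were 3 with fold changes below 0, Chaf1a turning above 0 without Ti replicate 2 or Ctrl replicate 1, and none passed. Uhrf1, which reads hemimethylated DNA behind the fork, stood at 526, 472 and 418 CPM in the Ti libraries, against 544, 545 and 446 CPM in the Ctrl libraries (-0.12 ± 0.13, unadjusted p = 0.404, adjusted p = 0.949, edgeR). Chaf1b, of the chromatin assembly chaperone, stood at 30.5, 22.9 and 25.1 CPM in the Ti libraries, against 33.4, 25.2 and 32.8 CPM in the Ctrl libraries (-0.22 ± 0.18, unadjusted p = 0.268, adjusted p = 0.913, edgeR), and its partner Chaf1a had -0.019 ± 0.11. In these 5 genes with library values the groups overlapped.

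Related genes outside the 44 were compared by list. Of 37 other replication and fork genes 0 passed and 0 had an unadjusted p under 0.05, where 0.026% and 6.76% of all genes did, with a median log2 fold change of 0.040. The smallest unadjusted p there were those of Pole3 (0.58 ± 0.34), Orc5 (0.41 ± 0.26), Wdhd1 (0.19 ± 0.15) and Topbp1 (-0.11 ± 0.081). With coding transcripts alone Pole3 had 1.0 (unadjusted p = 0.00207, adjusted p = 0.259, edgeR) and Orc5 1.06 (unadjusted p = 0.0541, edgeR), and Pole3 ranged from 0.356 to 1.02 with single libraries left out. Of 18 checkpoint genes 0 passed and 0 had an unadjusted p under 0.05, beside the same 0.026% and 6.76%, with a median of 0.010. Trp53, Rad9a, Brca2 and Wee1 had the smallest, with -0.14 ± 0.087, -0.62 ± 0.55, 0.17 ± 0.15 and -0.11 ± 0.12, and Rad9a had -1.52 without Ti replicate 3.

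Of 29 RB and E2F regulators 26 were tested and 0 passed, where 0.026% of all genes tested did. The CDK inhibitor genes Cdkn1c, Cdkn2a and Cdkn2b were listed at 0 in all 6 libraries. In that list 1 gene was higher and 1 lower with Ti at an unadjusted p under 0.05, where 3.42% and 3.34% of all genes were. Lin9, a subunit of the MuvB complex of cell cycle promoters, stood at 25.7, 24.8 and 23.3 CPM in the Ti libraries, against 16.9, 18.9 and 16.6 CPM in the Ctrl libraries, with the groups separated (0.50 ± 0.13, unadjusted p = 0.00767, adjusted p = 0.458, edgeR). With DESeq2, which called 1.9% of all genes tested, its adjusted p was 0.0131. With coding transcripts alone, which held 19.0% of its estimate on average, its log2 fold change was 1.59 (unadjusted p = 0.164, edgeR). Cdkn2c, an inhibitor of CDK4 and CDK6, had -0.33 ± 0.10, the MuvB subunit Lin54 -0.36 ± 0.15 and Ccnd3 -0.23 ± 0.10, and Ccnd3 had 0.22 with unrescaled values.

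Of 32 other nucleotide synthesis genes 0 passed, where 0.026% of all genes tested did. At an unadjusted p under 0.05 there were 2 higher and 2 lower (12.5%, against 6.76% of all genes tested). Tk2, the mitochondrial thymidine kinase, stood at 2.30, 2.38 and 2.77 CPM in the Ti libraries, against 9.32, 5.71 and 11.1 CPM in the Ctrl libraries, with the groups separated (-1.81 ± 0.29, unadjusted p = 0.000728, adjusted p = 0.211, edgeR). With DESeq2, which called 1.9% of all genes tested, its adjusted p was 6.42e-06, and its log2 fold change was -1.04 per length. With coding transcripts alone, which held 26.7% of its estimate on average, it was -0.80 (unadjusted p = 0.262, edgeR). That share was 38.8%, 29.5% and 28.1% in the Ti libraries, against 7.5%, 49.8% and 6.2% in the Ctrl libraries. Rrm2b, the ribonucleotide reductase subunit that p53 induces, stood at 6.80, 4.58 and 17.1 CPM in the Ti libraries, against 1.74, 3.27 and 2.52 CPM in the Ctrl libraries, with the groups separated (1.92 ± 0.55, unadjusted p = 0.0125, adjusted p = 0.529, edgeR). With DESeq2 its adjusted p was 0.0342, and its log2 fold change was 1.19 without Ti replicate 3, 1.07 per length and 2.54 with coding transcripts alone. Nme2, a nucleoside diphosphate kinase, stood at 338, 373 and 300.2 CPM in the Ti libraries, against 217, 232 and 242 CPM in the Ctrl libraries, with the groups separated (0.55 ± 0.11, unadjusted p = 0.00223, adjusted p = 0.298, edgeR). With DESeq2 its adjusted p was 0.00951, and since Nme1 (0.26 ± 0.13) is a close paralogue, how reads were split between them is uncertain. Atic, of the purine pathway, had -0.32 ± 0.10, and -3.34 with coding transcripts alone, which held 8.7% of its estimate on average. That share was 0.88%, 2.0% and 2.8% in the Ti libraries, against 19.4%, 24.5% and 2.2% in the Ctrl libraries, with Ctrl replicate 3 inside the Ti range.

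The deposited totals were 456595115 to 773215120 per library and the rescaled totals of annotated transcripts 37686020 to 60242937. The 10 macrophage markers were all detected, summing to 7009 to 8956 CPM in the Ti libraries and 5679 to 7564 CPM in the Ctrl libraries. Markers of fibroblasts, B cells, neutrophils, and epithelial and endothelial cells each summed to below 1 CPM in every library, with 3 of 8, 2 of 5, 2 of 6 and 4 of 7 genes detected. The T cell list summed to 1.5 to 1.74 CPM in the Ti libraries and 1.2 to 1.44 CPM in the Ctrl libraries, nearly all of it Lck, with Cd2 and Cd8a at 0.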

How the data were processed

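Total RNA of 3 Ti and 3 Ctrl samples was grouped by the labels. The authors deposited estimated counts for 187351 transcripts, as whole numbers. HISAT2, StringTie and build mm9 are listed per the submitters' processing notes; their versions and the counter are not named there. GENCODE vM21 (GRCm38) holds 141862 of the transcripts and gave the names. The other 45489 are assembled and carry no gene, so gene sums leave them out. Deposited values increased with genomic span: in 9 bins of span over exon length (medians 1 to 67.3) the lower quartile of nonzero values was 3 in the first and 198 in the last. Values were scaled by the ratio of exon length to span, then added up for each gene and rounded. This correction is approximate, the results are not whole reads, and how estimates were divided between transcripts can change a gene's sum.

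The test was edgeR 4.0.16 (quasi-likelihood fit without block, TMM, filterByExpr) in R 4.3.3, with Benjamini-Hochberg adjustment at 0.05 over 15376 genes. A standard error is the log2 fold change over the square root of F, and 95% intervals cover the spread between these libraries only. TPM values are computed from rescaled counts, without TMM. Alternatives used DESeq2 1.42.0 and limma 3.58.1. In 3 simulations of Ti against Ctrl over 15376 genes, edgeR found 3.0% of 2-fold and 41.3% of 4-fold changes, with 6.34% false among its calls. Tables and plots used Python 3.11.15 and matplotlib 3.10.9.

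Between libraries of the same group, a chi-square on the rescaled counts gave 150 to 513 per degree of freedom. Because rescaled counts are not whole reads, it cannot tell whether these libraries differ beyond sampling noise. Deviations from group means correlated at 0.110, 0.144 and 0.266 between libraries numbered 1, 2 and 3, against -0.170 to 0.0402 for other pairs. The numbers were therefore judged to pair the samples, from the data and not the labels; p-values, errors and intervals come from the fit without the block except where the block is named. The 44 genes and the lists were chosen with earlier results of these data known. The rule for named genes covers all 44, with library values for the smallest unadjusted p of the 44 and for the highest and lowest level per length in each role, and the 4 smallest p of each related list. Transcripts, other genes given by library, Rpa3 and Nme1 were chosen after their values were seen.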

Additional observations from a re-analysis of the deposited data

How the results depend on the processing

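Under the 17 alternatives run, 0 of the 44 replication genes passed, with 0 to 3 at an unadjusted p under 0.05. Their median log2 fold change lay between -0.0664 and 0.0258, and both ends came from fits with a single library left out. Leaving out 1 of 3 libraries can hardly move that median by more than its spread between libraries (0.0705), so this range does not measure stability. Over all genes the count of 4 was 292 with DESeq2, 10 with voom, 0 with the replicate block, 0 without both libraries numbered 3, 2 with protein-coding transcripts only and 1 with limma on TPM, a setting added after the data were seen. With single libraries left out it ranged over 1 to 13, with 1 without Ti replicate 1, 11 without Ti replicate 2, 13 without Ti replicate 3, 2 without Ctrl replicate 1 and 1 without Ctrl replicate 2; the cause was not tested. Of 748 values of single replication genes, 745 moved by less than the gene's own spread between replicates. The others were Cdc6 with TPM (-0.12) and Prim1 and Pole with protein-coding transcripts only (0.32 and 0.96). The coding share of Pole was high in Ti replicate 3 alone. Leaving out 1 of 3 libraries can hardly move a value by more than that spread, so the count of 745 does not measure stability. With single libraries left out, Cdc45 ranged from -0.034 to 1.42, Mcm7 from -0.20 to 0.58 and Lig1 from -0.63 to 0.15, all among the 745. The replicate block changed no call of a replication gene, which says little, since with it 0 of all genes tested passed. Few 2-fold changes were found in simulation (3.0%), which drew its changed genes from all genes tested. Their median standard error was 0.27, against 0.15 in the replication genes, so that share need not hold for the 44. A gene that did not pass may still differ within its interval.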
